A study of Mus musculus with 12 samples.

Results

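Lca5, Vinac1, Slc22a8, Irf1, Ovca2 and Zbtb2 are 6 of the 55471 gene features counted in RNA of mouse cortex and hippocampus, and they were chosen by a lower count 90 min after an induced convulsion than in naive brain, in input RNA, in RNA recovered with the U1 small nuclear ribonucleoprotein (U1 snRNP), or in both. Because the fitted difference between convulsed and naive animals selected them, that difference is described below without a test. All 6 features passed the filter on low counts in every comparison, Slc22a8 in input RNA only through the naive libraries. The tissue came from adult C57BL6JL males aged 3 to 5 months. MECS animals received maximal electroconvulsive stimulation, a 1 s train of 85 mA through ear clips, which gave generalized tonic-clonic convulsions in all of them, and naive animals were handled at the same time. Homogenized tissue of both states was irradiated with ultraviolet light at 400 mJ/cm2, and the lysate was either kept as input or precipitated with an antibody against U1-70K, a protein of the U1 snRNP. The 12 libraries from 6 animals form 4 groups of 3, namely MECS U1, naive U1, MECS input and naive input, and each U1 library has an input library of the same animal. Without a precipitate made with a control antibody among these libraries, U1 binding and other causes of unequal recovery cannot be told apart in a U1 to input ratio.

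The U1 snRNP pairs with 5′ splice sites at the start of splicing and also keeps nascent transcripts from ending early at polyadenylation signals inside introns. A convulsion drives strong neuronal firing, and transcription of many genes responds to such firing within minutes to hours. The 6 features belong to unrelated pathways. Lca5 encodes lebercilin, a protein of the ciliary axoneme that is known from inherited retinal blindness in humans. Vinac1 is annotated as a member of the vinculin and alpha-catenin family, whose better known members link cadherins to actin. Slc22a8 encodes the organic anion transporter OAT3, known from kidney and from the barriers between blood, cerebrospinal fluid and brain. Irf1 encodes interferon regulatory factor 1, a transcription factor induced by interferon-gamma. Ovca2 encodes a serine hydrolase and shares its locus with Dph1, a gene of diphthamide synthesis. Zbtb2 encodes a DNA-binding protein of the BTB zinc finger family.

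The libraries held 704432 to 1962312 gene counts each, 1.42 to 1.84% of the listed reads, while 88.3 to 91.3% of reads fell in no feature. Counts were low for transcripts abundant in brain, with 8 to 39 counts of the actin gene Actb and 8 to 22 of the synaptic gene Snap25 per library. The kit keeps strand, but no source used here tells which strand was counted. Just 2.23% of matched features have at least 50% of their exon bases under exons of the opposite strand, and these took 25.1% of gene counts, whereas the 72.7% with no exon base under an opposite-strand gene took 13.8%. Each value below is thus the count of an annotated feature, and the transcript it stems from was not determined. In bulk tissue, fewer cells of a type and less RNA per cell cannot be told apart. Nothing in the labels beyond the titles says how the animals of a group relate, so spread among libraries is spread among these animals.

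In GENCODE M21 on GRCm38, the assembly of the submitters' build mm10, 3 of the 6 features are overlapped by a gene of the opposite strand and 3 are not. Lca5 (ENSMUSG00000032258, chr9:83390293-83441127, minus strand) spans the processed pseudogene Rps27a-ps2, in an intron, and the antisense gene Gm2087, whose span covers 404 bp or 6.41% of its exon bases with no exon against an exon. Irf1 (ENSMUSG00000018899, chr11:53770014-53778374, plus strand) lies opposite Gm17334 (chr11:53772281-53773187), whose exons cover 135 bp or 3.4% of its exon bases. Ovca2 (ENSMUSG00000038268, chr11:75175942-75178835, minus strand) lies opposite the noncoding gene 1700016P03Rik (chr11:75172560-75177633), whose span covers 1692 bp or 63.4% of its exon bases and whose exons cover 24%, the largest opposite-strand exon overlap among the 6. Ovca2 also shares 969 exon bases with Dph1 on its own strand, so reads there cannot be assigned to one of them.

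No gene of the opposite strand overlaps Vinac1, Slc22a8 or Zbtb2. Vinac1 (ENSMUSG00000079051, chr2:129025073-129048172, minus strand) is followed after 3316 bp by the end of Gm14027, which is transcribed towards it, and preceded at 12773 bp by Gm14022. Slc22a8 (ENSMUSG00000063796, chr19:8591254-8611835, plus strand) is followed after 6203 bp by Slc22a6 on the same strand, which encodes the related transporter OAT1, and preceded at 2057 bp by the pseudogene Gm6425. Zbtb2 (ENSMUSG00000075327, chr10:4367075-4388108, minus strand) is followed after 7604 bp by the end of Akap12, a scaffold gene of protein kinase A transcribed towards it, and preceded at 3478 bp by Gm21781. Next to the others lie Gm37307, 6431 bp before Lca5, Gm46123, 36314 bp after Lca5, Mir7671, 6359 bp before Irf1, Gm12216, 5043 bp after Irf1, Rtn4rl1, 14947 bp before Ovca2, and Mir132, 2194 bp after Ovca2.

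**Figure D1:**
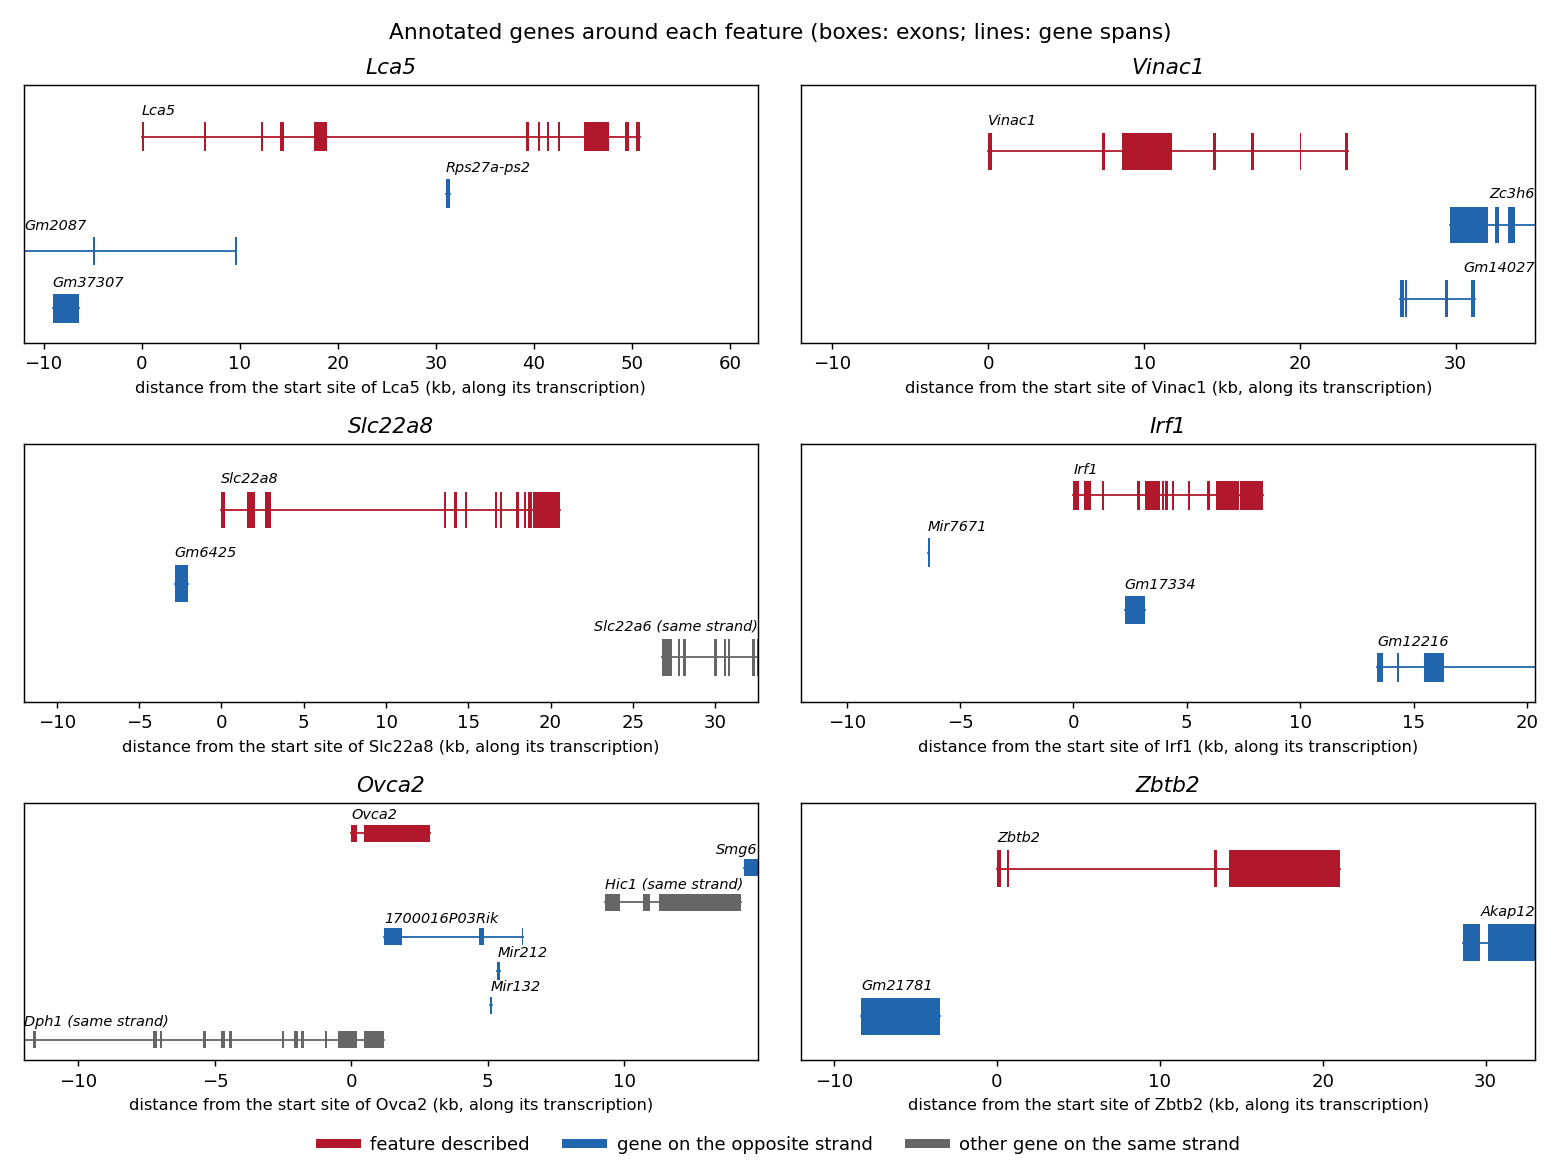
Maps of the 6 loci, with distance from each feature's annotated start site in kb along its own transcription on the horizontal axis; boxes are exons, lines are gene spans, red is the feature, blue a gene of the opposite strand and grey another gene of the same strand. Opposite-strand genes overlap Lca5, Irf1 and Ovca2, and none overlaps Vinac1, Slc22a8 or Zbtb2.

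Counts per length differed between the 6. Summed over the 12 libraries, Ovca2 had 3232 counts, or 1210 counts per exon kb, and Zbtb2, the sparsest per length, had 727 counts, or 98.6 per exon kb. Vinac1 had 370 counts per exon kb, Lca5 194, Irf1 179 and Slc22a8 169. The median feature with no exon base under an opposite-strand gene had 0.537 counts per exon kb, which is the class of Vinac1, Slc22a8 and Zbtb2, and 95.5% of such features had fewer than Zbtb2 and 99.0% fewer than Vinac1. Lca5, Irf1 and Ovca2 lie in the class with some exon bases under an opposite-strand gene but less than 50% under its exons, whose median was 54.5 counts per exon kb.

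The ciliary gene feature Lca5 was at 42.0, 66.9 and 55.4 CPM in the MECS U1 libraries, in counts scaled by TMM to a common library size, and at 142, 123 and 120 CPM in the naive U1 libraries. Its level was 44.7, 61.6 and 43.5 CPM in MECS input and 123, 92.3 and 109 CPM in naive input. Every MECS library lay below every naive library of either kind, and U1 and input overlapped within each state. The fitted log2 change with MECS was -1.23 (SE 0.19) in U1 RNA and -1.15 (SE 0.21) in input RNA. Between 44 and 237 reads per library lay behind these levels.

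The 2 RefSeq start windows of Lca5 overlap and each hold 3 matches of the CCAAT box, a common promoter element that NF-Y binds, and the first of them is printed (RefSeq, GRCm38.p6, minus strand, chr9:83441078-83441377, capitals mark CCAAT).
Lca5 promoter: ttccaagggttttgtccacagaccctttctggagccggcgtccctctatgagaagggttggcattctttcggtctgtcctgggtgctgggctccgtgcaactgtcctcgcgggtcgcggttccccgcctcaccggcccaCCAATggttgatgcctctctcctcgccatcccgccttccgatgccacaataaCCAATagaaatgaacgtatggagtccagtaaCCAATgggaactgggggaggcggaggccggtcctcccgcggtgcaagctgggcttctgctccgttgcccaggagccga
CCAAT, searched on both strands like the Slc22a8 motif below, was found in 37.4% of the 32841 promoter windows in the RefSeq table, each running from 250 bases before to 50 after a start site. That share counts windows with any match, and the share with 3 matches was not taken. The motifs were chosen with these windows in view, and a match is a string of letters, not an observed binding site.

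Vinac1, the vinculin family feature, was at 72.4, 81.9 and 78.3 CPM in MECS U1 and at 152, 134 and 170 CPM in naive U1. The input libraries gave 59.9, 89.1 and 80.1 CPM in MECS animals and 114, 133 and 157 CPM in naive animals. As with Lca5, the states did not overlap in either kind of RNA, and U1 and input did within each state. The fitted log2 change was -0.98 (SE 0.17) in U1 RNA and -0.85 (SE 0.20) in input RNA. Both neighbours were almost without counts, Gm14022 and Gm14027 each having 0 or 1 in every library, and neither could be tested.

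Slc22a8, the organic anion transporter feature, differed most in size and varied most between animals. In U1 RNA it was at 13.2, 57.5 and 10.2 CPM in MECS libraries and at 60.7, 105 and 160 CPM in naive libraries. In input RNA it was at 3.79, 16.5 and 5.94 CPM in MECS libraries and at 19.3, 29.8 and 41.8 CPM in naive libraries. MECS animal 2 was the highest of its state in both kinds of RNA and lay just below the lowest naive library. The fitted log2 change was -2.08 (SE 0.40) in U1 RNA and -1.84 (SE 0.43) in input RNA, and without MECS animal 2 it was -3.23 (SE 0.35) in U1 RNA and -2.66 (SE 0.49) in input RNA. Counts were few in MECS input, at 5, 18 and 6 reads. The filter's level on low counts was reached in 1 MECS input library and 3 naive input libraries. Slc22a8 thus entered the input comparison through the state where it was high.

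The Slc22a8 start window (RefSeq, GRCm38.p6, plus strand, chr19:8592932-8593231) holds GTTAAT, the first letters of the motif of the kidney and liver factor HNF1, marked in capitals, as do 7.1% of all windows. This window lies inside the GENCODE M21 span of the gene, which begins at chr19:8591254, so its start site is not the one used for the map.
Slc22a8 promoter: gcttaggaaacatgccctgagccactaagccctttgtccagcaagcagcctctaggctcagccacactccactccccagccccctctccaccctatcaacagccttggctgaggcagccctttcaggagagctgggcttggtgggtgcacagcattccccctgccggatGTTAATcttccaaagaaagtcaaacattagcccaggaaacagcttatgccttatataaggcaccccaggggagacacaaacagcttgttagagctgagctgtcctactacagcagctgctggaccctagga
HNF1 is a known activator of this transporter family in kidney, and its binding was not measured here.

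The neighbouring transporter feature Slc22a6, one of the few neighbours with enough counts to describe, was at 3.11, 5.51 and 3.82 CPM in MECS U1 and at 11.4, 9.83 and 21.3 CPM in naive U1. Its input level was 0.758, 2.76 and 0 CPM in MECS animals and 7.03, 7.44 and 6.19 CPM in naive animals. The states did not overlap in either kind of RNA, yet the U1 difference, a log2 change of -1.75 (SE 0.49), did not pass edgeR's quasi-likelihood test (Benjamini-Hochberg adjusted p = 0.132), the feature passed the filter on low counts only through naive U1, and input counts of 0 to 8 were too few to be tested. Defining choroid plexus genes were near 0, with at most 2 counts per library of Folr1, Aqp1 and Otx2 and at most 3 of Clic6 and Kl. Transcripts abundant in brain also had few counts, as given above, so these low counts do not show whether choroid plexus was in the tissue. Ttr, the transthyretin gene of choroid plexus, was at 5.45, 7.08 and 4.45 CPM in MECS U1, against 15.2, 3.11 and 11.6 CPM in naive U1. In input, Ttr was at 15.9, 20.2 and 1.98 CPM in MECS animals and at 16.7, 35.7 and 17.8 CPM in naive animals. The 13 choroid plexus markers other than Slc22a8 summed to 119 to 125 CPM in MECS U1 and 120 to 136 CPM in naive U1. In input the sums were 129.6 to 168 CPM in MECS animals and 121 to 154 CPM in naive animals. The states overlapped in both kinds of RNA. Among these markers Kcnj13 alone had enough counts to be tested in U1 RNA, and Kcnj13, Ttr and Enpp2 in input RNA. The sums therefore say little about the defining genes near 0. Kcnj13, a potassium channel gene of choroid plexus, was at a log2 change of 0.01 (SE 0.18) in U1 RNA and 0.28 (SE 0.20) in input RNA. The transcript behind the Kcnj13 counts was not determined, so its values are no measure of choroid plexus. Ttr was at -0.80 (SE 0.45) and Enpp2 at -0.31 (SE 0.46) in input RNA, and none of these 4 values passed the edgeR test (adjusted p from 0.608 to 0.99). Aqp1 and Sostdc1 were at 0 throughout MECS U1, Clic6 and Sostdc1 throughout naive U1, and Aqp1, Folr1 and Otx2 throughout naive input. The 12 endothelial markers summed to 223 to 253 CPM in MECS U1 and 283 to 330 CPM in naive U1. In input the sums were 194 to 206 CPM in MECS animals and 214 to 234 CPM in naive animals, and the states overlapped in neither kind of RNA. Of single features tested, 6.67% in U1 RNA and 6.08% in input RNA lay lower with MECS without overlap. No such share was taken for sums of markers, so these shares are no background for the endothelial sums. Only 5 endothelial markers could be tested in U1 RNA and 3 in input RNA, and 0 were called. The part of these cell types in the Slc22a8 difference was not tested.

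Irf1, the interferon response factor, was at 32.7, 39.4 and 37.5 CPM in MECS U1 and at 75.8, 80.2 and 79.1 CPM in naive U1. Its input level was 31.1, 32.2 and 32.6 CPM in MECS animals and 41.3, 44.7 and 54.9 CPM in naive animals. The naive U1 libraries stood above all others, and no 2 groups of the 4 overlapped. The fitted log2 change was -1.12 (SE 0.20) in U1 RNA and -0.59 (SE 0.25) in input RNA.

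Gm17334, under the Irf1 gene on the other strand, was measured in the same libraries. It was at 123, 116 and 72.6 CPM in MECS U1 and at 84.7, 68.8 and 116 CPM in naive U1, a log2 difference of 0.20 (SE 0.22), and at 49.3, 61.6 and 35.6 CPM in MECS input and 41.3, 52.1 and 45.6 CPM in naive input, a difference of 0.07 (SE 0.24). Neither difference passed edgeR's quasi-likelihood test (adjusted p = 0.813 in U1 and 0.955 in input).

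Ovca2, the most abundant of the 6 per length, was at 198, 173 and 204 CPM in MECS U1 and at 255, 258 and 259 CPM in naive U1. In input RNA it was at 160, 159 and 159 CPM in MECS animals and at 253, 275 and 331 CPM in naive animals. The 3 MECS input libraries were the closest of its 4 groups and lay lowest. The fitted log2 change was -0.44 (SE 0.15) in U1 RNA and -0.87 (SE 0.16) in input RNA, and the states overlapped in neither.

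The opposite-strand gene 1700016P03Rik is of interest because its span holds Mir132 and Mir212, which are known in rodents as microRNA genes induced by neuronal activity. The mature microRNAs (RefSeq, GRCm38.p6, plus strand, chr11:75173723-75173744 for miR-132-3p and chr11:75173443-75173464 for miR-212-3p) share the seed AACAGUC at bases 2 to 8, in capitals.
mmu-miR-132-3p: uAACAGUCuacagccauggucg
mmu-miR-212-3p: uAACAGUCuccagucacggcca
Of the 0.863 kb of exon of 1700016P03Rik, 641 bp lie under exons of Ovca2. Which strand its counts stem from was not determined, so they do not test induction of the microRNA host transcript. As a feature, 1700016P03Rik was at 62.3, 92.9 and 71.3 CPM in MECS U1 and at 88.5, 71.9 and 70.2 CPM in naive U1. In input it was at 94.7, 75.3 and 69.3 CPM in MECS animals and at 100.2, 87.9 and 98.2 CPM in naive animals. Its log2 change with MECS was -0.03 (SE 0.20) in U1 RNA and -0.28 (SE 0.19) in input RNA, and neither passed edgeR's quasi-likelihood test (adjusted p = 0.981 and 0.682). Mir132 itself had 0 or 1 count per library, in a kit made for longer RNA, and Dph1 had 0 to 7.

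Zbtb2, the BTB zinc finger feature, was at 71.6, 39.4 and 68.7 CPM in MECS U1 and at 44.2, 56.9 and 60.5 CPM in naive U1. Its input level was 33.3, 23.0 and 18.8 CPM in MECS animals and 65.1, 59.6 and 48.0 CPM in naive animals. MECS input stood below all other groups, and the U1 libraries of both states overlapped with each other and with naive input. The fitted log2 change was 0.13 (SE 0.23) in U1 RNA and -1.19 (SE 0.26) in input RNA. Akap12, the neighbour transcribed towards Zbtb2, was at 98.1, 93.7 and 91.6 CPM in MECS U1 against 70.8, 77.6 and 62.2 CPM in naive U1, a log2 difference of 0.40 (SE 0.18) that did not pass edgeR's quasi-likelihood test (adjusted p = 0.414). In input Akap12 was at 67.4, 92.8 and 77.2 CPM in MECS animals and at 75.6, 50.6 and 85.9 CPM in naive animals, a difference of 0.11 (SE 0.21, adjusted p = 0.921 in the same test). The other neighbours named above had at most 14 counts in a library and were not tested.

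**Figure D2:**
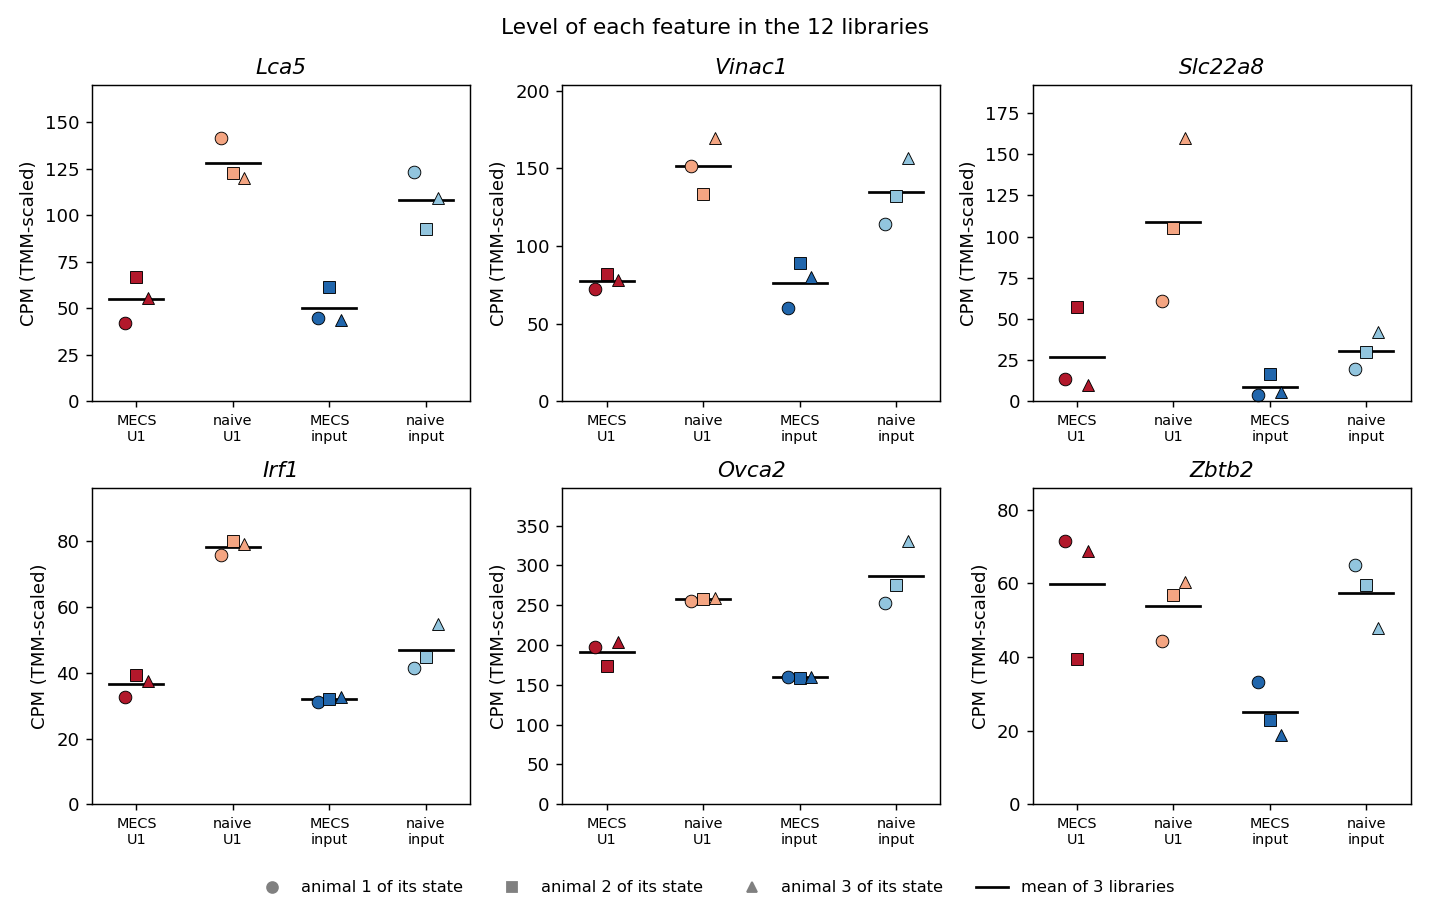
Level of each feature in the 12 libraries, in TMM-scaled CPM on a linear axis from 0, for MECS U1, naive U1, MECS input and naive input; symbols mark the 3 animals of a state and bars the mean of 3 libraries. For Lca5, Vinac1, Slc22a8, Irf1 and Ovca2 the MECS libraries lie below the naive ones in both kinds of RNA, and for Zbtb2 in input alone, where MECS libraries sit between 18.8 and 33.3 CPM.

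Group means order the levels. Lca5, Vinac1, Slc22a8 and Irf1 were highest in naive U1, then naive input, MECS U1 and MECS input. For Lca5 and Vinac1 the first pair of neighbours in that order overlapped, as did the last, leaving a gap between the states. For Slc22a8 naive U1 stood apart, at 109 ± 49.8 CPM (SD, n = 3), while naive input at 30.3 ± 11.2 CPM overlapped MECS U1 at 27.0 ± 26.5 CPM, which overlapped MECS input at 8.75 ± 6.82 CPM. Ovca2 was highest in naive input at 287 ± 40.1 CPM, overlapping naive U1 at 257 ± 1.83 CPM, followed by MECS U1 at 192 ± 16.2 CPM and MECS input at 159 ± 0.475 CPM. Zbtb2 was highest in MECS U1 at 59.9 ± 17.9 CPM, overlapping naive input at 57.5 ± 8.74 CPM and naive U1 at 53.9 ± 8.53 CPM, and lowest in MECS input at 25.0 ± 7.49 CPM. Per exon kb, the naive input level was 107 CPM for Ovca2, 31.7 for Vinac1, 17.2 for Lca5, 11.8 for Irf1, 7.80 for Zbtb2 and 7.75 for Slc22a8.

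As a description of the choice, the quasi-likelihood test of edgeR, after Benjamini-Hochberg adjustment, called 4 of the 6 lower in MECS U1 RNA, Lca5, Vinac1, Slc22a8 and Irf1, where 0.0539% of 11141 features were called lower and 0.386% in either direction. It called 5 lower in MECS input RNA, all but Irf1, where 0.0961% of 10402 features were called lower and 0.606% in either direction. Lca5, Vinac1 and Slc22a8 are the 3 features called lower in both. Among the members called, Slc22a8 had the highest adjusted p in both kinds of RNA, 0.0119 in U1 and 0.0333 in input by this test. Of the members not called, the lowest in U1 was Ovca2 with 0.232, and Irf1 in input was at 0.398, both far from the threshold. MECS libraries lay below naive ones without overlap for 5 of 6 features in U1 RNA, beside 6.67% of all features tested, and for 6 of 6 in input RNA, beside 6.08%. The median log2 change of the 6 was -1.05 in U1 and -1.01 in input, and that of all features tested was -0.02 in both. Both comparisons draw on the same 6 animals, so they are not independent of each other.

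These calls, which only describe the choice, rested in part on single libraries. The alternatives refit the libraries that chose the features, so a kept call is no support for the difference. In U1 RNA Lca5 kept its call under each of 15 alternatives, with log2 changes of -1.37 to -1.07. Irf1 lost it without MECS U1 1 (-1.04), Vinac1 without naive U1 1 (-0.96) or MECS U1 1 (-0.92), and Slc22a8 without naive U1 3 (-1.71) or MECS U1 1 (-1.75) and with DESeq2 (-2.02). In input RNA Lca5 lost its call without naive input 1 (-1.05) and Ovca2 without naive input 3 (-0.73). Zbtb2 lost it without naive input 1 (-1.08) or 2 (-1.15) or MECS input 2 (-1.10) or 3 (-1.01). Slc22a8 lost it without naive input 2 (-1.85) or 3 (-1.47) or MECS input 1 (-1.42) or 3 (-1.65) and with all 12 libraries in 1 fit (-1.83). Vinac1 lost it without naive input 1 (-0.96), 2 (-0.85) or 3 (-0.69) or MECS input 1 (-0.67) or 3 (-0.87). No call of these was gained by another feature of the 6, and none of the called changes turned its direction.

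**Figure D3:**
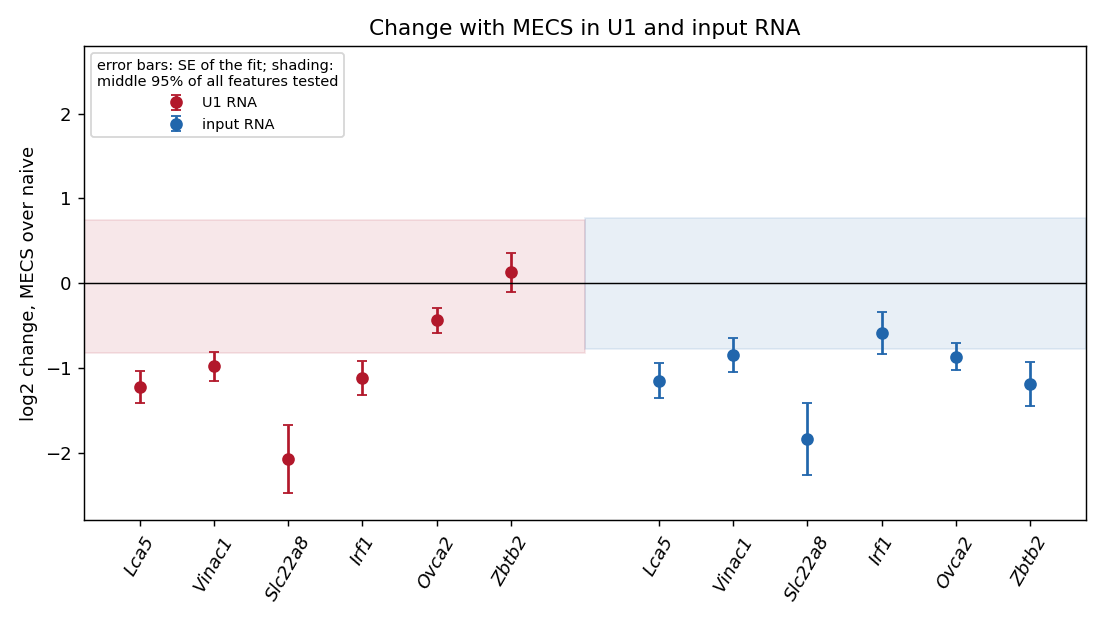
Fitted log2 change with MECS over naive for the 6 features, U1 RNA on the left and input RNA on the right; points are fitted values, bars their SE, and shading the middle 95% of all features tested, from -0.82 to 0.75 in U1 and from -0.78 to 0.77 in input. Lca5, Vinac1, Slc22a8 and Irf1 lie below the shading in U1 and Lca5, Vinac1, Slc22a8, Ovca2 and Zbtb2 in input.

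U1 against input RNA, averaged over both states, is another contrast than MECS against naive, but it averages over the same libraries, so a feature chosen for a low level in MECS input alone stands higher in it. Its values were therefore also fitted in each state alone, a choice made after seeing the data. Slc22a8 was higher in U1 RNA than in input by a log2 change of 1.73 (SE 0.33, adjusted p = 0.000136 by edgeR's quasi-likelihood test over 12184 features). It was at 1.61 (SE 0.53, adjusted p = 0.0571) in MECS animals alone and at 1.84 (SE 0.39, adjusted p = 0.00109) in naive animals alone in the same edgeR model. Zbtb2 was at 0.58 (SE 0.18, adjusted p = 0.0176) over both states, but at 1.24 (SE 0.26) in MECS animals and -0.07 (SE 0.24) in naive animals, and the MECS input libraries that selected it enter its average. Irf1 was at 0.46 (SE 0.15, adjusted p = 0.0309) over both states, at 0.20 (SE 0.23) in MECS animals and 0.73 (SE 0.21) in naive animals, and the U1 libraries that selected it enter its average. The averages of Zbtb2 and Irf1 are thus given as descriptions. The 3 of 6 past the threshold stand beside 7.92% of all features called higher in U1 RNA, with another 9.45% called lower, 17.4% in all. Lca5 at 0.18 (SE 0.14, adjusted p = 0.448), Vinac1 at 0.10 (SE 0.13, adjusted p = 0.694) and Ovca2 at 0.05 (SE 0.11, adjusted p = 0.803) did not pass. The median of the 6 was 0.32, against 0.03 for all features tested.

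Averaged over both states, Slc22a8 kept its call under each of 20 alternatives, the smallest value, 1.14, being the one without MECS U1 2, which moved it by more than 1.5 times. Zbtb2 lost its call without naive input 3 (0.52), MECS input 3 (0.50), MECS U1 1 (0.51) or MECS U1 3 (0.52). Irf1 lost its call in 12 of the 20. They were the fits without a filter (0.45), with a filter on CPM (0.46) and with DESeq2 (0.45), and those without naive input 1 (0.39) or 2 (0.43), MECS input 1 (0.45), 2 (0.46) or 3 (0.47), naive U1 2 (0.45) or 3 (0.45), or MECS U1 2 (0.43) or 3 (0.45), with adjusted p up to 0.149. Among the neighbours, Gm17334 opposite Irf1 was higher in U1 RNA by 1.02 (SE 0.17, adjusted p = 1.48e-05 by the same edgeR test) and kept this call under every alternative run. Its U1 libraries, from 68.8 to 123 CPM, lay above all its input libraries, from 35.6 to 61.6 CPM. Slc22a6 was at 1.38 (SE 0.48), a description only, since it passed the filter on low counts through the 3 naive U1 libraries and through 0 of the other 9. 1700016P03Rik at -0.21 (SE 0.14, adjusted p = 0.335) and Akap12 at 0.11 (SE 0.14, adjusted p = 0.664) did not pass the edgeR test.

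**Figure D4:**
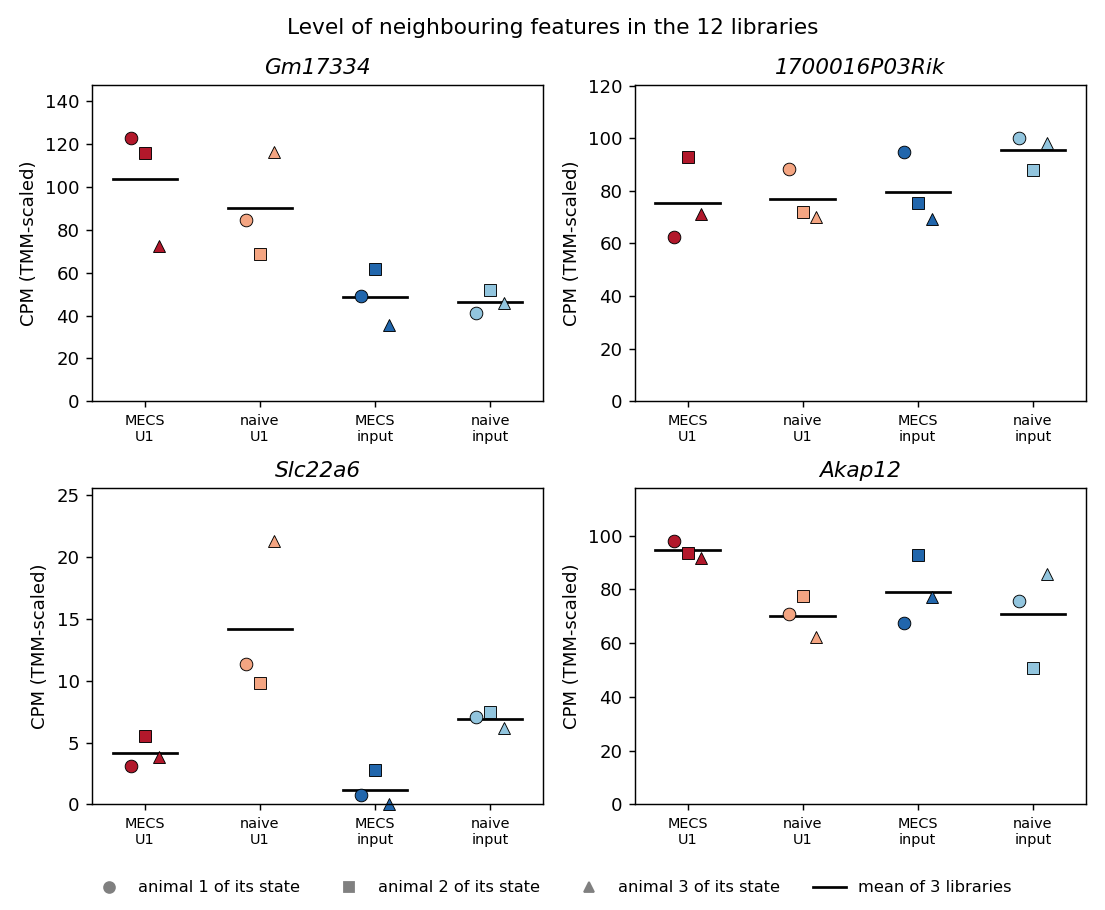
Levels of 4 neighbouring features, Gm17334 opposite Irf1, 1700016P03Rik opposite Ovca2, Slc22a6 beside Slc22a8 and Akap12 beside Zbtb2, in TMM-scaled CPM on a linear axis from 0, for MECS U1, naive U1, MECS input and naive input; symbols mark the 3 animals of a state and bars the means. U1 libraries of Gm17334 lie above its input libraries, and MECS libraries of Slc22a6 lie below naive ones.

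The ratio of U1 to input was also taken within each animal. As a description, since the contrasts that chose the features enter it, the ratios for Zbtb2 were 2.13, 1.70 and 3.59 in MECS animals and 0.682, 0.956 and 1.26 in naive animals, without overlap. For Irf1 they were 1.05, 1.22 and 1.15 in MECS animals and 1.83, 1.79 and 1.44 in naive animals, again without overlap. Ovca2 had 1.24, 1.09 and 1.28 in MECS animals and 1.01, 0.938 and 0.782 in naive animals. Slc22a8 had 3.20, 3.40 and 1.66 in MECS animals and 3.08, 3.49 and 3.80 in naive animals, above 1 in all 6 animals. Lca5 had 0.941, 1.09 and 1.27 in MECS animals and 1.15, 1.33 and 1.10 in naive animals, and Vinac1 had 1.21, 0.919 and 0.977 in MECS animals and 1.33, 1.01 and 1.08 in naive animals. The states overlapped for Slc22a8, Lca5 and Vinac1. Of all 12184 features, 4.74% had ratios lower in MECS animals without overlap, as Irf1 did, and 4.74% higher without overlap, as Zbtb2 and Ovca2 did.

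The MECS effect on this ratio, the interaction of state and kind of RNA, contains the contrasts that chose the features and is given without a test of them. It was 1.31 (SE 0.35) for Zbtb2, 0.42 (SE 0.21) for Ovca2, -0.54 (SE 0.31) for Irf1, -0.23 (SE 0.71) for Slc22a8, -0.13 (SE 0.26) for Vinac1 and -0.09 (SE 0.28) for Lca5 on the log2 scale. Their median was -0.11, against 0.01 for all 12184 features. The edgeR quasi-likelihood test called 0 features here, a share of 0%, while 383 had an unadjusted p under 0.05, and DESeq2 and limma-voom also called 0. One feature, Ccdc107, was called in 7 of 20 alternatives, with log2 changes of 1.70 to 2.31, and is named after its values were seen.

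**Figure D5:**
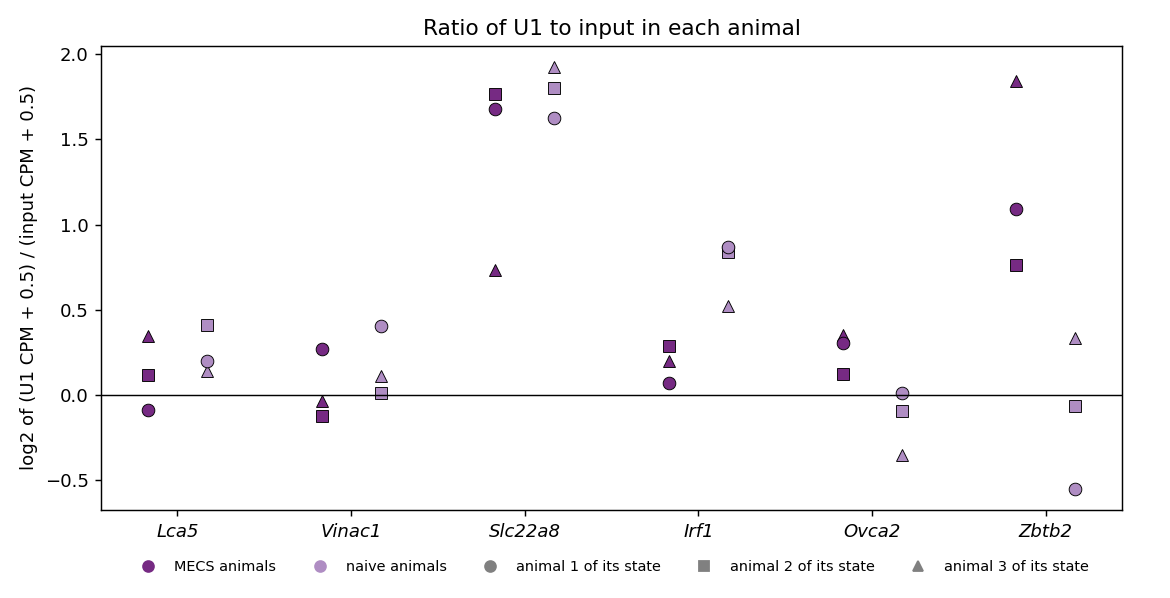
Ratio of U1 to input in each of the 6 animals for each feature, as log2 of CPM plus 0.5 in U1 over CPM plus 0.5 in input, MECS animals to the left of naive animals; the line at 0 marks equal levels. Zbtb2 and Ovca2 lie higher in MECS than in naive animals and Irf1 lower, without overlap, and Slc22a8 lies above 0 in all 6 animals.

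Across the 12 libraries, Pearson's r of log2 CPM between pairs of the 6 ranged from 0.34 (Vinac1 and Zbtb2) to 0.92 (Vinac1 and Lca5). Since the features were chosen for a shared difference between states, and all values of a library share its depth, these are descriptions. Irf1 correlated with Slc22a8 at 0.88 and with Vinac1 at 0.87, and Zbtb2 with Ovca2 at 0.64. Among 7175 features with a mean log2 CPM of at least 2, the closest to Lca5 were Lrig1 (r = 0.94) and Il17rd (0.93), and to Vinac1 Gpha2 (0.94) and Lca5 (0.92). Rrnad1 (0.94) and Tarbp2 (0.92) were closest to Slc22a8, H2afz (0.92) and Pdcd11 (0.91) to Irf1, Clcn2 (0.93) and Cpsf1 (0.92) to Ovca2, and Lrrc73 (0.91) and Mir3544 (0.89) to Zbtb2.

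Genes that share a pathway with the 6 were read by their own features' symbols, with the 6 counted in their lists and medians. Calls and p-values of the 6 in these lists follow from how they were chosen and are descriptions only. Over all features tested, 0.0539% were called lower with MECS in U1 RNA and 0.0961% in input RNA. In the interferon list, 13 of 34 genes could be tested in U1 RNA and 1, Irf1, was lower with MECS, while in input RNA 0 of 11 passed edgeR's quasi-likelihood test and 1 had an unadjusted p under 0.05, also Irf1. Ifit1, an interferon-induced gene, was at -0.72 (SE 0.24) and Irgm1, an interferon-induced GTPase gene, at 1.25 (SE 0.43) in U1 RNA, and neither passed. The list's median log2 change was -0.17 in U1 and 0.01 in input. In the organic ion transport list, Slc22a8 was called lower among 9 genes tested in U1 RNA and 6 in input RNA, with medians of -0.20 and -0.21. Abcb1a, the P-glycoprotein gene of brain endothelium, was at -0.81 (SE 0.37) in U1 RNA and did not pass.

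Among primary cilium genes, Lca5 was called lower of 16 tested in U1 RNA and of 14 in input RNA, with list medians of 0.03 and -0.07. Ofd1, a centriole gene, was at 0.59 (SE 0.21) in U1 RNA and Cep290, a transition zone gene, at -0.33 (SE 0.21) in input RNA, and neither passed. Of the catenin and vinculin genes, Vinac1 was called lower of 17 in U1 RNA and of 16 in input RNA, with medians of -0.15 and -0.17, and Vcl, the vinculin gene, was at 0.31 (SE 0.16) in U1 RNA without passing. The BTB zinc finger list had 17 of 22 tested genes below 0 in U1 RNA, where 51.9% of all features were below 0, and 15 of 20 in input RNA, where 52.5% were. Its medians were -0.28 and -0.29, with 0 called in U1 RNA, where Zbtb20 and Zbtb43 had an unadjusted p under 0.05, and 1 in input RNA, Zbtb2. Zbtb14 was at -1.17 (SE 0.32) in input RNA and Zbtb20 at -1.01 (SE 0.40) in U1 RNA, and neither passed. The list of diphthamide synthesis genes and serine hydrolases had medians of -0.33 in both kinds of RNA, with 0 of 9 called in U1 RNA, where Ovca2 alone had an unadjusted p under 0.05, and Ovca2 called of 8 in input RNA. Dph7, a gene of diphthamide synthesis, was at -1.01 (SE 0.48) in input RNA and did not pass.

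For U1 against input, the same lists gave calls in both directions by edgeR's quasi-likelihood test, to be read beside the 7.92% of all features called higher and 9.45% called lower. Of 14 interferon genes, Irf1 and Nlrc5, a regulator of MHC class I genes, were higher, Irf1 as a description only, as stated above. Of 9 transport genes, Slc22a8, Slc22a6 and Slco2b1, an organic anion transporter gene, were higher, Slco2b1 by 1.03 (SE 0.31). Of 16 cilium genes, the intraflagellar transport gene Ift172 was higher by 0.74 (SE 0.20), and Rpgrip1, Cep290, Tctn1 and Ofd1 were lower, with log2 changes of -0.73 (SE 0.24) for Tctn1, -0.56 (SE 0.16) for Cep290, -0.46 (SE 0.11) for Rpgrip1 and -0.40 (SE 0.14) for Ofd1. Of 17 catenin and vinculin genes, the adaptor gene Sorbs3 was higher by 1.31 (SE 0.19) and Ctnnd2 was lower by a log2 change of -0.80 (SE 0.28). Of 22 BTB zinc finger genes, Zbtb43 at 1.07 (SE 0.24), Zbtb21 at 0.50 (SE 0.14), Zbtb2 and Zbtb37 were higher. Zbtb2 is again a description only, being at -0.07 (SE 0.24) in naive animals alone. Of 9 genes of the Ovca2 list, Eef2, the elongation factor that carries diphthamide, was lower at -1.47 (SE 0.28). List medians lay between -0.11 and 0.20. Slc22a6, Nlrc5 and Zbtb37 passed the filter on low counts through U1 libraries alone, so their direction is not independent of the filter. The same limit holds for Slco2b1, which reached the filter's level in 3 MECS U1, 2 naive U1, 0 MECS input and 1 naive input libraries.

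Marker lists of other cell types showed 0 calls with MECS in either kind of RNA except Slc22a8 itself, which the choroid plexus list holds (4 tested in input, 2 in U1). Unadjusted p under 0.05 was found for Slc22a6 in U1 RNA. Beside the choroid plexus genes given above, medians in U1 and input RNA were -0.10 and -0.20 for leptomeningeal fibroblasts, -0.33 and -0.26 for endothelium, -0.01 and -0.19 for microglia, 0.05 and -0.28 for ependyma and -0.03 and -0.07 for neurons. For U1 against input, where 9.45% of all features were lower and 7.92% higher, 5 of 11 neuronal genes were lower (Nefm, Camk2a, Slc17a7, Syt1 and Nefl). Enpp2 and Ttr of the choroid plexus list were lower, Enpp2 having passed the filter through input libraries alone. Ttr reached the filter's level in 0 MECS U1, 2 naive U1, 2 MECS input and 3 naive input libraries, so its direction is not independent of the filter either. Ranbp3l of the fibroblast list was lower and Foxc1 and Slc22a6 higher. Flt1 of the endothelial list was higher, Rarres2 of the ependymal list was lower and 0 of 5 microglial genes passed. The neuronal markers of the labelled tissue summed to 669 to 1127 CPM in MECS U1, 616 to 890 in naive U1, 1611 to 2490 in MECS input and 1765 to 2686 in naive input. Of the 25 list members other than the 6 that were called for U1 against input, 15 kept their calls under each of 20 alternatives. Slc22a6, Nlrc5, Slco2b1, Cep290, Tctn1, Ofd1, Ctnnd2, Zbtb37, Ttr and Ranbp3l lost theirs in 1 to 16 of them, among these Ctnnd2 at -0.79 (adjusted p = 0.0537 by edgeR) and Zbtb37 at 0.93 (adjusted p = 0.0643) with the animal as a replicate block.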

How the data were processed

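For each of the 12 libraries of 100 bp single-end reads, the authors deposited raw counts by gene identifier. Build mm10 and the tools DESeq2, Salmon 1.4, StringTie 2.1.3, HISAT2 2.2.0, FastQC and Trimmomatic 0.39 are named, per the submitters' processing notes. How reads were assigned to genes, on which strand and with which gene models, is not given in the sources consulted. Of 55471 identifiers, 55230 matched GENCODE M21, which gave names, neighbours and overlaps. Rows that name no gene, 88.3 to 91.3% of listed reads for those in no feature, entered neither library sizes nor tests.

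The 6 features and all gene lists were chosen with earlier results of these data known. All features were fitted with edgeR 4.0.16 (R 4.3.3), using TMM scaling, filterByExpr and the quasi-likelihood test with Benjamini-Hochberg adjustment at 0.05. Log2 changes are MECS over naive or U1 over input, and each SE is the change divided by the square root of F. CPM used TMM over all 12 libraries. Ratios per animal used a pseudocount of 0.5 CPM. MECS against naive was fitted on 6 libraries, U1 against input and the interaction on 12. The procedure was tested on simulated data with a fixed spread and with changes larger than most of those of the 6 features. That simulation does not bear on changes as small as most of theirs. Named features are the 6, their overlapping and nearest genes, the 2 features most correlated with each over libraries, leaving out clone and predicted names, and, from each list, members that passed and some of the up to 3 with the smallest p. Neighbours transcribed towards a feature beyond the nearest gene were added to the fits after the annotation was seen, and their values are not described. The maps show all annotated genes close to each feature. Alternatives were RLE and library size scaling, other filters, DESeq2 1.42.0, leaving out each library, a replicate block, 1 fit of all 12 libraries, limma-voom (limma 3.58.1) and dropping small RNA, ribosomal RNA and mitochondrial genes. Fits of U1 against input in each state alone were added after seeing the data.

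Title prefixes tie U1 and input libraries to the same animal. Their deviations from group means correlated at 0.11, 0.22 and 0.12 in MECS animals and at 0.02, -0.10 and -0.02 in naive animals. MECS and naive animals share only numbers.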

Additional observations from a re-analysis of the deposited data

How the results depend on the processing

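The number of features called for MECS against naive in input RNA was 63, and 129 with library size scaling, 111 without a filter, 97 with a filter on CPM, 142 with the replicate block, and 19 to 114 with 1 library left out (19, 21 and 31 without naive input 1, 2 or 3, and 114 and 24 without MECS input 1 or 3). In U1 RNA it was 43, and 151 without a filter, 92 with a filter on CPM, 80 with DESeq2, 88 with all 12 libraries in 1 fit, 35 with the replicate block and 13 to 225 with 1 library left out (15 and 225 without naive U1 1 or 2, and 13 and 121 without MECS U1 1 or 2). For U1 against input 2116 were called, 1684 to 2154 with 1 library left out and 2306 with the animal as replicate block, which changed no call of the 6 features in any comparison. It was 886 in MECS animals alone and 1263 in naive animals alone, both chosen after seeing the data, where Zbtb2 was at -0.07 and Ovca2 at -0.16 in naive animals. For the interaction 0 were called, and 1, Ccdc107, with library size scaling, without a filter, with a filter on CPM, with the replicate block and in 3 of 12 fits with 1 library left out (0 to 1). MECS and naive numbers correlated at -0.10 to 0.07, so that block pairs numbers only. Of 1085 values of named features under the other alternatives, 945 kept direction and side of the threshold, 121 lost a call and 19 changed sign, none of those a called change. With MECS in input, Gm17334 was at -0.00 and -0.10 without naive input 1 or MECS input 2, and Akap12 at -0.04 and -0.00 without naive input 2 or MECS input 2, with highest values of 0.26 and 0.29. With MECS in U1, 1700016P03Rik ranged from -0.18 to 0.09, at 0.01 without a filter, 0.02 with a filter on CPM and 0.08, 0.09 and 0.02 without naive U1 1, MECS U1 1 or MECS U1 3, and Zbtb2 ranged from -0.00 without MECS U1 1 to 0.37. U1 against input, Ovca2 ranged from -0.02 without naive input 1 to 0.11. The interaction of Slc22a8 ranged from -1.40 to 0.61 (0.05, 0.61, 0.15, 0.09 and 0.19 where positive) and that of Lca5 from -0.25 to 0.09 (0.01, 0.09 and 0.07 where positive). The causes were not tested.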
